A study of Mus musculus with 8 samples.

Results

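Conventional type 1 dendritic cells (cDC1) of mice with an altered Zeb2 enhancer were compared with wild-type cDC1, over all genes, in 4 of the series' 8 RNA-seq libraries. The libraries were chosen by their labels: 2 of cDC1 from wild-type mice and 2 of cDC1 from mice of the genotype Zeb2 -165(d1+2+3), called Zeb2 mutant here. All came from untreated C57BL/6 spleens, with 100000 sort-purified cells in each library. The other 4 libraries, wild-type cDC2 and cDC2 of the genotype Irf8 +32-/-, entered the fit so that the spread between replicates was estimated over 8 libraries, and wild-type cDC2 levels are given for reference. The sort gates, the ages, the number of mice behind each library and what the replicate numbers 2 and 3 stand for are not stated in these sources, so p-values reflect the spread among these libraries and nothing wider.

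Dendritic cells are the main antigen-presenting cells that start T cell responses. The cDC1 subset depends on the transcription factor Irf8 and is known for presenting antigen from dead cells to cytotoxic T cells, while cDC2 depend on the repressor Zeb2, a zinc-finger protein that binds E-box motifs. The element named in the genotype is an enhancer of Zeb2 known to be needed for the development of cDC2, and the comparison asks what its alteration leaves changed in the cDC1 that still form. The genotype names a regulatory element, and the labels report no change in coding sequence.

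The 4 cDC1 libraries held 52658762 to 58611821 counts, 25993 to 32358 genes with at least 1 count, and a mitochondrial share of 0.297 to 0.325%. Values below are CPM, counts scaled to a library total of 1000000 with TMM factors, in the order wild-type replicate 2, wild-type replicate 3, mutant replicate 2, mutant replicate 3 unless stated. The 2 wild-type libraries stood apart from each other: the SD of their log2 difference over the 8404 genes averaging 10 CPM or more was 0.42, against 0.24 between the mutant libraries. That difference followed gene length, as set out further on, and list medians against each wild-type library are given beside the pooled ones for some lists. Lists without such a split can differ as much. NK cell markers had a median log2 difference of -0.57 against wild-type replicate 2 and 0.11 against replicate 3. Neutrophil markers had 2.78 and 5.74.

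The labelled cell type held in all 4 libraries. Xcr1, the chemokine receptor that defines cDC1, was at 700.4 and 688 CPM in the wild-type libraries and at 687 and 658 CPM in the mutant, against a mean of 3.59 CPM in wild-type cDC2. Clec9a, a receptor for dead cells, was at 307, 227, 264 and 264 CPM, and Irf8 at 3263, 3641, 3709 and 3439 CPM. The groups overlapped for Clec9a and Irf8, and none of the 3 genes passed the test (edgeR quasi-likelihood, Benjamini-Hochberg adjusted p = 0.937, 0.984 and 0.949). Zeb2 itself was near the bottom of its range, at 2.09 and 2.10 CPM in wild type against 2.24 and 3.54 CPM in the mutant (121, 123, 130 and 192 counts), against 200.4 CPM in wild-type cDC2. Its log2 fold change was 0.46 (SE 0.21, edgeR adjusted p = 0.477). Over 32 other settings of the analysis this value ran from -0.22 to 0.76, and 0 of them called it.

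Of 20631 genes tested, 14 changed between Zeb2 mutant and wild-type cDC1, 3 of them higher and 11 lower in the mutant (0.0679% of genes tested by edgeR at an adjusted p under 0.05, 0.0145% higher and 0.0533% lower). The genes that fell were led by Cd209a and included Hpgd and the TNF-family cytokine genes Tnf and Tnfsf9. Fkbp5, Lifr and Pag1 rose. In all 14 genes both mutant libraries lay on the same side of both wild-type libraries, as did 3957 of all tested genes with the mutant above (19.2%) and 4084 with the mutant below (19.8%).

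**Figure D1:**
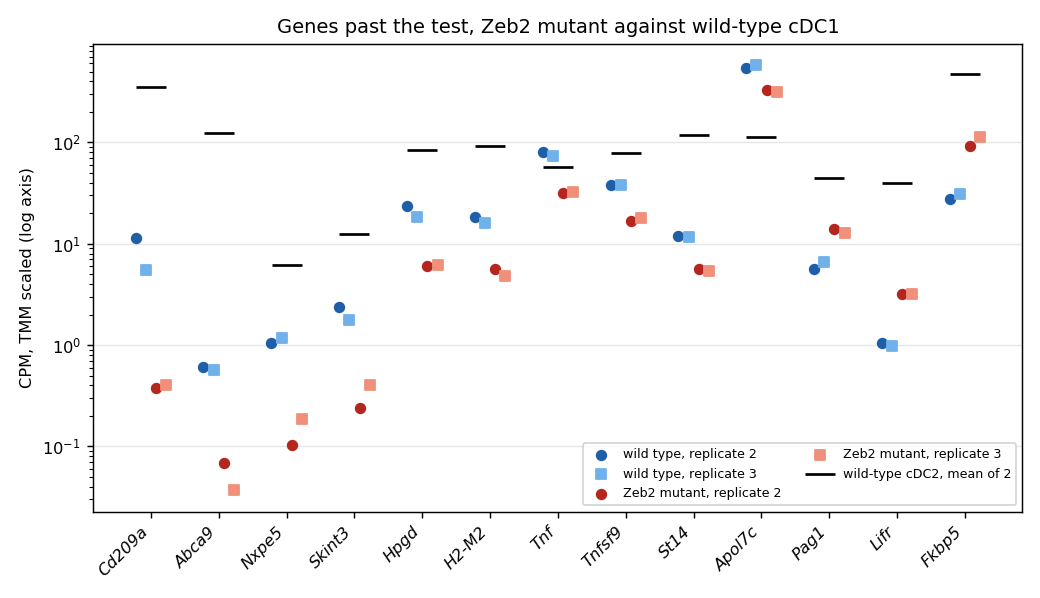
Level of 13 of the genes past the test (x axis) in each cDC1 library as points and the wild-type cDC2 mean as a bar, in TMM-scaled CPM on a log axis. In every gene shown the 2 mutant points lie on the same side of the 2 wild-type points, from Cd209a, at 11.5 and 5.53 CPM in wild type against 0.378 and 0.406 CPM in the mutant, to Fkbp5, at 27.7 and 30.7 CPM in wild type against 91.4 and 112 CPM in the mutant.

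Start sites of 4 of these genes, and of Fosb, an immediate-early gene described further on, are shown because Zeb2 is known to bind the E-box CACCTG. Each line gives the 250 bases before the RefSeq start, 5′ to 3′ on the gene's strand, from RefSeq's table for GRCm38.p6; capitals mark CACCTG read on either strand.
Cd209a (chr8:3748985-3749234, minus strand): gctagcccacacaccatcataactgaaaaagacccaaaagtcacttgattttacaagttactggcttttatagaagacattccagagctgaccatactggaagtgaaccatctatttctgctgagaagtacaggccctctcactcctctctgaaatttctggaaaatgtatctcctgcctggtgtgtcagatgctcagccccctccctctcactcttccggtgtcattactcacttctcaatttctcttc
Hpgd (chr8:56294302-56294551, plus strand): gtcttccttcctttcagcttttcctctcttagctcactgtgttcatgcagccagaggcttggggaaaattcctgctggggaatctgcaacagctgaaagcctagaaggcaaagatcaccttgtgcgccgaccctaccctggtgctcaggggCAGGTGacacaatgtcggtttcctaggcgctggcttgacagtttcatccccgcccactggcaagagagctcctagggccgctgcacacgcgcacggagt
Tnf (chr17:35202008-35202257, minus strand): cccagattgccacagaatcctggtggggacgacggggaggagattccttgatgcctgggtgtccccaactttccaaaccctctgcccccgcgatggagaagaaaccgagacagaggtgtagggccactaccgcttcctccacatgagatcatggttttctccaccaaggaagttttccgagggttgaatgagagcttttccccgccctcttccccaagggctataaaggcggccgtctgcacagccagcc
Fkbp5 (chr17:28486150-28486399, minus strand): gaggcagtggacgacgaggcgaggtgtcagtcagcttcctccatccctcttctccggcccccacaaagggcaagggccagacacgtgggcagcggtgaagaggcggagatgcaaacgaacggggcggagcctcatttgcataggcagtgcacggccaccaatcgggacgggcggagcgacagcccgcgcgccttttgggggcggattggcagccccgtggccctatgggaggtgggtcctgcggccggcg
Fosb (chr7:19310046-19310295, minus strand): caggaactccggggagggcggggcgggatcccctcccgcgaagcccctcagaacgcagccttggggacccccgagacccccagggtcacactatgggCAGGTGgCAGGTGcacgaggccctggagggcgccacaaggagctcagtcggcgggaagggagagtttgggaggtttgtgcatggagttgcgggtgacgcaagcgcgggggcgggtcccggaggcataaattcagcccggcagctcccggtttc
Only Hpgd, with a match that begins 99 bases before the start, and Fosb, with matches 153 and 146 bases before it, hold the motif in these 5 windows. The table held 10 of the 14 genes that changed, and 2 of these 10 had a match (Hpgd and H2-M2), against 17.1% of all 27025 windows of the same length. Among immediate-early genes it was 2 of 27 with a window, and among glucocorticoid-induced genes 3 of 18. Of 5 further patterns searched on both strands, 4 had no match in the 10 windows: an NF-kappaB site (GGG, any 2 bases, TT, any base, CC; 4.0% of all windows), the AP-1 site TGANTCA (6.87%), the cyclic AMP response element TGACGTCA (1.62%) and a glucocorticoid receptor half-site pair (ACA and TGT 3 bases apart, with G and C 1 base outside them; 0.381%). The looser NF-kappaB pattern (GGG and CC 5 bases apart), which includes the stricter one, was in 6 of the 10 and in 45.4% of all windows. In the immediate-early windows the looser NF-kappaB pattern was in 21 of 27 (77.8%), the stricter one and the cyclic AMP response element in 3 each (11.1%), and the AP-1 site and the glucocorticoid receptor pattern in 1 each (3.70%). In the glucocorticoid-induced windows these were in 11 (61.1%), 1, 1, 2 and 1 of 18. A match is a description of letters, and its absence says only that these letters are not in the window.

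Cd209a, a C-type lectin of the DC-SIGN family and a marker of a part of cDC2 (ENSMUSG00000031494, chromosome 8, 3743397 to 3748984, minus strand), had 665 and 323 counts in the wild-type libraries and 22 in each mutant library. As a level this was 11.5 and 5.53 CPM in wild type against 0.378 and 0.406 CPM in the mutant. The 2 wild-type libraries differed from each other, and both stood far above both mutant libraries. The mutant was 21.7-fold lower, a log2 fold change of -4.43 (SE 0.38, edgeR adjusted p = 0.00322). Wild-type cDC2 had 381 and 324 CPM, so the wild-type cDC1 libraries held 3.26 and 1.57% of that mean and the mutant libraries 0.107 and 0.115%.

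Other cDC2 markers had mixed values. Sirpa, the receptor that defines cDC2, was at 0.290 and 0.210% of its wild-type cDC2 level in the wild-type libraries and at 0.281 and 0.202% in the mutant, where the groups overlapped. Tlr7, a sensor of RNA in endosomes, was at 0.117 and 0.0145% in wild type and 0.189 and 0.125% in the mutant. These values rest on 8 and 1 counts in wild type and 13 and 8 in the mutant, too few to give a direction. Lifr, the receptor for leukemia inhibitory factor (ENSMUSG00000054263, chromosome 15, 7090614 to 7197489), rose from 1.04 and 0.975 CPM to 3.20 and 3.17 CPM, against 39.9 CPM in wild-type cDC2 (log2 fold change 1.66, SE 0.23, edgeR adjusted p = 0.0413). Over the 17 markers at 50 CPM or more in wild-type cDC2, the median level was 4.82 and 2.53% of the cDC2 level in the wild-type libraries and 2.28 and 2.78% in the mutant libraries.

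**Figure D2:**
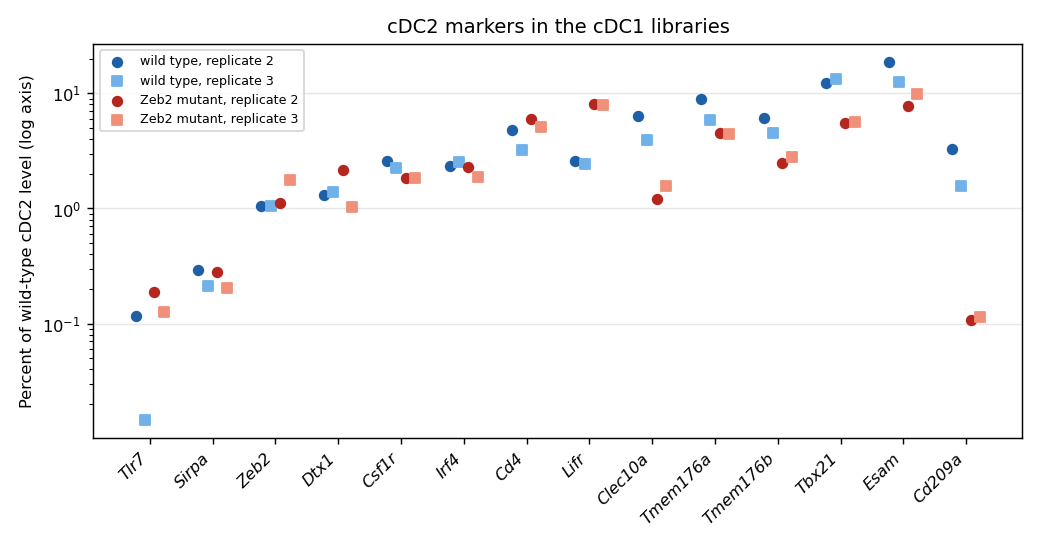
Level of 14 cDC2 markers, a selection from the 30 tested, in each cDC1 library (points) as a percentage of the wild-type cDC2 mean, on a log axis. Clec12a (318 to 473%), Ccr2 and Notch2, with higher percentages than those shown, were left out. Sirpa stands below 1% in all 4 libraries, Lifr is higher in the mutant, and Cd209a falls from 3.26 and 1.57% to 0.107 and 0.115%.

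Of 30 cDC2 markers tested, 1 fell (Cd209a) and 1 rose (Lifr), while 11 were lower and 3 higher at an unadjusted p under 0.05 (5.05 and 5.50% of all genes). Their median log2 fold change was -0.35, against -0.03 over all genes tested. It was -0.49 against wild-type replicate 2 alone and -0.04 against replicate 3 alone. Clec10a, a lectin for galactose residues, was at 1.35, 0.838, 0.258 and 0.332 CPM, and Tbx21, a T-box factor, at 5.13, 5.58, 2.29 and 2.36 CPM, with edgeR adjusted p-values of 0.117 and 0.131. Tmem176b, a membrane protein, was at 37.0, 27.5, 15.1 and 16.8 CPM (adjusted p = 0.0677). In each of these 3 genes both mutant libraries lay below both wild-type libraries, and DESeq2 called all 3 (over all genes it called 1.18% higher and 1.09% lower of 13431). The summed level of the cDC2 markers was 803 and 784 CPM in wild type against 688 and 683 CPM in the mutant. Its largest parts were Clec12a (237, 161, 159 and 160 CPM) and Notch2 (165, 303, 287 and 293 CPM). Clec12a was at 50.1 CPM in wild-type cDC2, below every cDC1 library, so the sum is no measure of cDC2 RNA. In bulk RNA, fewer cells of a type and less RNA per cell cannot be told apart, and whether a few cDC2 in the wild-type sorts had a part in these values was not tested.

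Several other genes that fell were also more abundant in wild-type cDC2 than in either cDC1 group. Abca9, a transporter of the ABC family, had 35 and 33 counts in wild type and 4 and 2 in the mutant, or 0.605, 0.565, 0.0688 and 0.0369 CPM against 123 CPM in wild-type cDC2 (log2 fold change -3.40, edgeR adjusted p = 0.0185). Skint3, an immunoglobulin-superfamily member related to Skint1, was at 2.37, 1.78, 0.241 and 0.406 CPM (log2 fold change -2.68, adjusted p = 0.0185). Nxpe5, a gene of the neurexophilin and PC-esterase domain family, was at 1.04, 1.16, 0.103 and 0.184 CPM (log2 fold change -2.92, adjusted p = 0.0293). All 3 were below 3 CPM in wild-type cDC1, so their log2 fold changes rest on few counts, 2 to 22 in a mutant library.

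St14, the membrane serine protease matriptase, was at 12.0 and 11.7 CPM in wild type against 5.62 and 5.35 CPM in the mutant, against 118 CPM in wild-type cDC2 (log2 fold change -1.11, SE 0.14, edgeR adjusted p = 0.0185). H2-M2, a non-classical MHC class I gene in the H2 region, was at 18.3, 15.9, 5.68 and 4.81 CPM against 92.3 CPM in cDC2 (log2 fold change -1.70, adjusted p = 0.0185). In both genes the replicates of a group lay close together and the groups far apart. H2-M2, Skint3 and Nxpe5 belong to families of related genes, and how the authors counted reads shared between relatives is not given in the sources used here.

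Hpgd, the enzyme that inactivates prostaglandins, fell from 23.6 and 18.4 CPM to 6.02 and 6.20 CPM (3.44-fold lower, log2 fold change -1.78, SE 0.17, edgeR adjusted p = 0.00547). It is on chromosome 8 from 56294585 to 56321043 (plus strand), and its adjusted p was at most 0.0453 with any 1 library left out and low genes filtered anew. Of 23 prostaglandin and leukotriene genes tested, Hpgd alone passed, and their median was -0.06 (0.04 with the length trend removed; -0.17 against wild-type replicate 2, 0.06 against replicate 3). Ptgs2, which makes prostaglandin precursors, was at 22.2, 21.7, 22.5 and 18.0 CPM, and the receptor Ptger4 at 118, 103, 132 and 121 CPM. Hpgd had thus changed, while values of Ptgs2 overlapped between the groups.

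Tnf, which encodes tumour necrosis factor (ENSMUSG00000024401, chromosome 17, 35199381 to 35202007, minus strand), was at 81.1 and 72.9 CPM in wild type against 31.7 and 32.5 CPM in the mutant. The 2 mutant libraries lay within 1 CPM of each other and well below both wild-type libraries. The log2 fold change was -1.26 (SE 0.13, 2.40-fold lower, edgeR adjusted p = 0.00723). Tnfsf9, the 4-1BB ligand that costimulates T cells, was at 37.8, 38.4, 16.9 and 17.8 CPM (log2 fold change -1.13, SE 0.14, adjusted p = 0.0185). Tnf kept its call once the length trend was taken out of each library (adjusted p = 0.0124) and Tnfsf9 lost it (0.0889).

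Of 17 TNF superfamily ligands tested, these 2 fell and 0 rose, and 6 were lower at an unadjusted p under 0.05 (5.05% of all genes). The median was -0.47, and -0.28 with the length trend removed. Tnfsf13b, the B cell survival factor BAFF, was at 3.85, 3.11, 1.36 and 1.48 CPM (edgeR adjusted p = 0.312), with both mutant libraries below. Ltb, a component of lymphotoxin, was at 27.9, 20.7, 18.1 and 17.0 CPM (adjusted p = 0.421). The summed level of the list was 172 and 152 CPM in wild type against 86.6 and 84.4 CPM in the mutant. Most of that fall was Tnf (81.1, 72.9, 31.7 and 32.5 CPM) and Tnfsf9 (37.8, 38.4, 16.9 and 17.8 CPM). The sum thus largely repeats their calls.

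Apol7c, an apolipoprotein L gene of activated cDC1, was by far the most abundant gene that changed, at 546 and 577 CPM in wild type against 325 and 313 CPM in the mutant, with 112 CPM in wild-type cDC2. It fell by 0.81 on the log2 scale (SE 0.11, edgeR adjusted p = 0.0436; 0.117 with the length trend removed). Relatives in the same gene family lie nearby, so reads may have been split between them. Among 20 mature dendritic cell genes, those of migrating and activated cells, Apol7c alone passed, and 8 were lower at an unadjusted p under 0.05 (5.05% of all genes). The median was -0.34, and -0.25 with the length trend removed. It was -0.45 against wild-type replicate 2 and -0.22 against replicate 3. Ccr7, the receptor for migration to lymph nodes, was at 743, 561, 470.2 and 526 CPM (adjusted p = 0.426), and Relb, an NF-kappaB subunit, at 125, 122, 86.0 and 101 CPM (0.312). Cd86, the costimulatory ligand, overlapped between the groups at 551, 491, 483 and 551 CPM.

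Fkbp5, a co-chaperone of steroid receptors and a target of glucocorticoids (ENSMUSG00000024222, chromosome 17, 28399094 to 28517527), rose from 27.7 and 30.7 CPM in wild type to 91.4 and 112 CPM in the mutant, still below the 474 CPM of wild-type cDC2. The RefSeq start shown above lies inside this longer gene model. The log2 fold change was 1.80 (SE 0.19, 3.49-fold, edgeR adjusted p = 0.0109). Of 18 glucocorticoid-induced genes tested it alone passed. At an unadjusted p under 0.05, 4 were higher and 3 lower (5.50 and 5.05% of all genes). Both mutant libraries lay above both wild-type libraries in 6 and below in 3 (19.2 and 19.8% of all genes). The list's median was 0.09, with -0.04 against wild-type replicate 2 and 0.23 against replicate 3. Nfkbia was at 257, 330, 202 and 227 CPM (edgeR adjusted p = 0.352), with the mutant below. Dusp1 was at 1534, 2041, 1278 and 1378 CPM (0.371), also with the mutant below. Tsc22d3, which encodes the glucocorticoid-induced leucine zipper, was at 533, 416, 487 and 599 CPM, and Per1, a clock and glucocorticoid target, at 176, 129, 141 and 155 CPM, so both overlapped between the groups. Pik3ip1, an inhibitor of PI3 kinase, was at 16.1, 17.6, 26.1 and 28.1 CPM (adjusted p = 0.148), with the mutant above. Sgk1, a kinase of the same program, was at 171, 134, 218 and 193 CPM (adjusted p = 0.352) and the receptor Nr3c1 at 102, 117, 143 and 126 CPM (adjusted p = 0.451), with the mutant above in both. Of 18 clock genes 0 passed, with 2 lower at an unadjusted p under 0.05 (5.05% of all genes).

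Pag1, a membrane adaptor that binds the kinase Csk, was the other gene that rose, from 5.67 and 6.53 CPM to 14.0 and 12.8 CPM (log2 fold change 1.13, SE 0.16, edgeR adjusted p = 0.0450). With the length trend removed, Pag1 and Lifr were both at an adjusted p of 0.0676. Below the threshold, the cDC1 marker Itgae, the integrin CD103, was at 104, 112, 199 and 259 CPM (adjusted p = 0.0871), with both mutant libraries above, and DESeq2 called it. Serpinb2, an inhibitor of plasminogen activators, at 49.5, 56.5, 16.2 and 21.9 CPM, and Gp2, a bacterial adhesin receptor, at 68.1, 62.4, 31.3 and 33.0 CPM, were among the genes nearest to the threshold (adjusted p = 0.0582 and 0.0603), and both were picked out after their values were seen.

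Of 28 cDC1 markers tested, 0 passed, and 2 were higher and 1 lower at an unadjusted p under 0.05 (5.50 and 5.05% of all genes). Their median was 0.05. Their summed level was 34248 and 32239 CPM in wild type against 32031 and 34047 CPM in the mutant. Cd8a was at 687, 624, 577 and 554 CPM (edgeR adjusted p = 0.572) and Cadm1 at 713, 692, 754 and 808 CPM (0.714). Batf3, the partner of Irf8 in cDC1, was at 99.1, 102, 76.8 and 88.1 CPM (0.460). Of 16 factors that act with or around Zeb2, 0 passed, and 3 were lower and 3 higher at an unadjusted p under 0.05. Id3, an inhibitor of E proteins, was at 2.38, 2.67, 1.27 and 0.793 CPM (0.252). Cebpb, which binds enhancers of the myeloid program, was at 5.27, 5.0, 8.08 and 8.02 CPM (0.208), and Zeb1, the paralogue of Zeb2, at 40.7, 41.0, 49.2 and 48.6 CPM (0.489).

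Immediate-early genes, which respond within minutes to stimulation and to handling of the tissue, had mostly lower values in the mutant. Of 33 tested, 0 passed edgeR's test, 33 had a fitted value below 0, 17 were lower at an unadjusted p under 0.05, and in 25 both mutant libraries lay below both wild-type libraries. Over all 20631 genes, 10890 had a fitted value below 0 and 9695 above, 5.05% were lower at an unadjusted p under 0.05, and 19.8% had both mutant libraries below. DESeq2 called 10 of the list. The median was -0.43 (-0.34 with the length trend removed), with -0.50 against wild-type replicate 2 and -0.43 against replicate 3. Their summed level was 26501 and 28265 CPM in wild type against 19551 and 18569 CPM in the mutant.

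Fosb, an AP-1 subunit, was at 811, 766, 509 and 492 CPM (log2 fold change -0.65, SE 0.12, edgeR adjusted p = 0.0871; DESeq2 adjusted p = 5.1e-05). Zfp36, which destabilises Tnf mRNA among others, was at 1663, 1698, 1109 and 1107 CPM (edgeR adjusted p = 0.102). Gadd45b and Dusp2, both induced by NF-kappaB and MAP kinase signals, were at 221, 162, 91.0 and 106 CPM and at 226, 176, 93.6 and 119 CPM (edgeR adjusted p = 0.0806 and 0.0821). In these 4 genes the groups did not overlap, but none passed the main test. Jun varied more within the groups, at 398, 1045, 348 and 287 CPM, so that wild-type replicate 3 alone set its high mean.

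**Figure D3:**
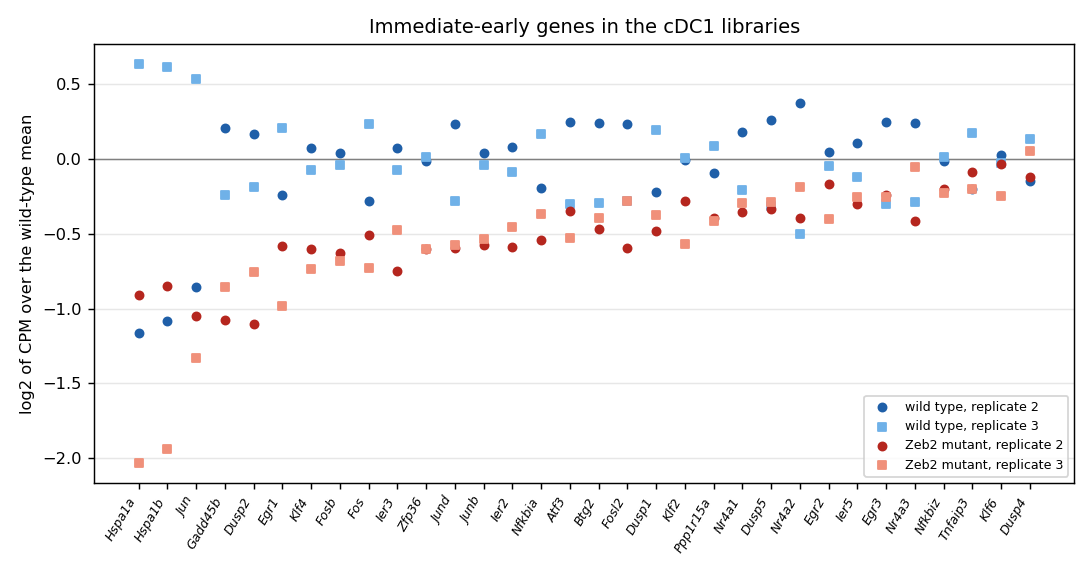
Level of 32 immediate-early genes (x axis, in order of their fitted change) in each cDC1 library (points), as the log2 ratio to the wild-type mean. Most mutant points lie below 0 and below both wild-type points, as for Fosb and Zfp36, while Hspa1a, Hspa1b and Jun spread widely within the wild-type pair.

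Of 27 cytokines and chemokines outside the TNF family tested, 0 passed and 9 were lower at an unadjusted p under 0.05 (5.05% of all genes). Their median was -0.42, and -0.25 with the length trend removed. It was -0.62 against wild-type replicate 2 and -0.16 against replicate 3. Ccl3, a chemokine for T cells and monocytes, was at 105, 67.1, 41.0 and 46.2 CPM (edgeR adjusted p = 0.192), and Ccl5, a chemokine for T cells, at 103, 69.3, 47.3 and 51.1 CPM (0.172). Ccl22 was at 51.7, 42.1, 19.2 and 25.8 CPM (0.208), Cxcl10 at 36.2, 29.2, 20.04 and 13.5 CPM (0.226) and Ccl2 at 77.8, 55.6, 32.7 and 29.7 CPM (0.266). In these 5 chemokine genes the mutant libraries lay below both wild-type libraries. Ccl4 was at 788, 473, 314 and 405 CPM (0.297). Il1b, the inflammasome cytokine, overlapped at 1992, 1020.1, 1033 and 1191 CPM. The summed level of the list was 4721 CPM (wild-type replicate 2), 2982 CPM (wild-type replicate 3), 2653 CPM and 2905 CPM (mutant).

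**Figure D4:**
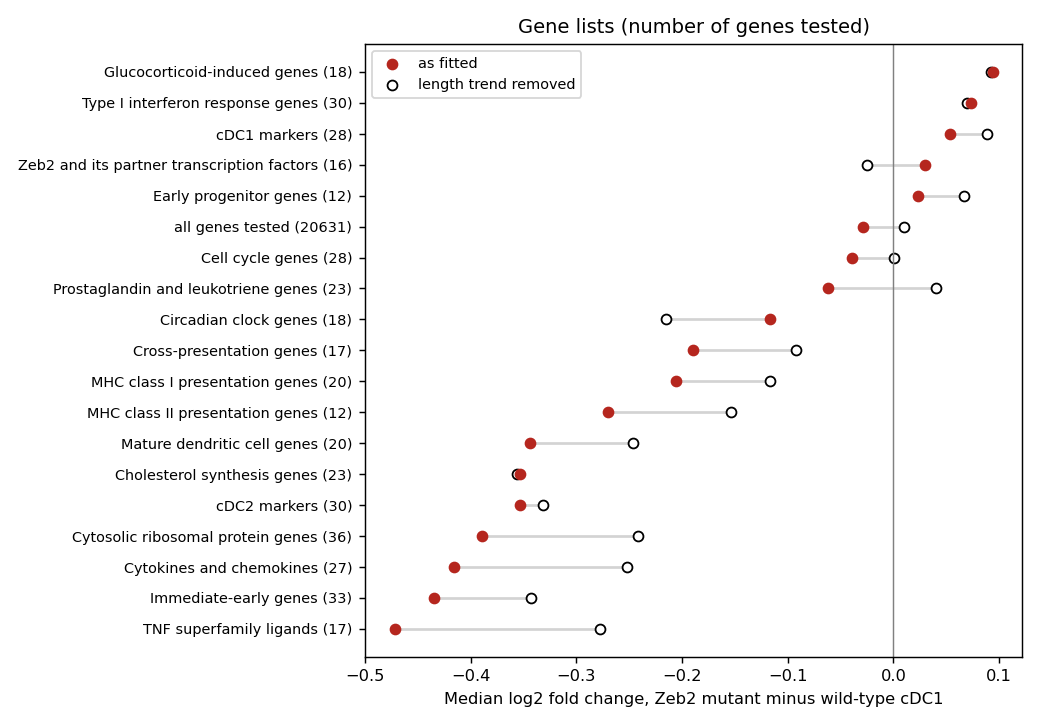
Median log2 fold change (mutant minus wild-type cDC1, x axis) of gene lists, with the number of genes tested in brackets, as fitted (filled) and after removal of each library's length trend (open). Markers of cells other than cDC1 and cDC2, and sex-linked genes, are not drawn. Among those left out, neutrophil markers had a median of 3.59 and monocyte and macrophage markers -0.39. TNF superfamily ligands, immediate-early genes, and cytokines and chemokines lie furthest below 0, at -0.47, -0.43 and -0.42 as fitted, and all genes tested at -0.03.

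Of 20 MHC class I presentation genes, a list that does not hold H2-M2, 0 passed and 7 were lower at an unadjusted p under 0.05 (5.05% of all genes). Their median was -0.21, and -0.12 with the length trend removed. Of 12 MHC class II genes 0 passed and 3 were lower at an unadjusted p under 0.05. Their median of -0.27 became -0.15 with the length trend removed, and it was -0.42 against wild-type replicate 2 and -0.11 against replicate 3. Of 17 cross-presentation genes 1 passed (Apol7c) and 4 were lower at an unadjusted p under 0.05. Their median of -0.19 became -0.09 with the length trend removed, with -0.25 against replicate 2 and -0.02 against replicate 3. H2-K1, a classical class I gene, was at 1817, 1599.8, 1267 and 1376 CPM (edgeR adjusted p = 0.372). Wdfy4, which cDC1 need for cross-presentation, showed the spread of the wild-type pair: it was at 2115 and 4250 CPM there and at 4414 and 4409 CPM in the mutant (adjusted p = 0.544). Of 30 type I interferon response genes 0 passed (median 0.07), and of 28 cell cycle genes 0 passed (median -0.04). Of 23 cholesterol synthesis genes 0 passed, and 7 were lower at an unadjusted p under 0.05 (5.05% of all genes). In 16 both mutant libraries lay below both wild-type libraries (19.8% of all genes). The median was -0.35, and -0.36 with the length trend removed, a fit that called 1 member lower. Sqle, a rate-limiting enzyme, was at 52.3, 46.9, 34.5 and 34.2 CPM (edgeR adjusted p = 0.298). All 36 cytosolic ribosomal protein genes tested had a fitted value below 0, as did 10890 of all 20631 genes, with 0 past the test. Their median of -0.39 became -0.24 with the length trend removed, and it was -0.60 against wild-type replicate 2 and -0.15 against replicate 3.

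Markers of other cells were counted as well. Of 10 neutrophil markers 0 passed edgeR's test and 10 had a fitted value above 0, as did 9695 of all 20631 genes. At an unadjusted p under 0.05, 5 were higher (5.50% of all genes), and DESeq2 called 2 (Elane and Ltf). Their summed level was 14.7 and 1.30 CPM in wild type against 98.4 and 138 CPM in the mutant. The wild-type cDC2 libraries had 2.13 and 29.5 CPM. Elane, the serine protease elastase of neutrophil granules, was at 1.14, 0.188, 8.43 and 8.37 CPM (adjusted p = 0.160 by edgeR), and Ltf, lactoferrin, at 0.657, 0.205, 16.2 and 21.8 CPM (0.320). Ngp, a granule protein, was at 4.42, 0, 25.5 and 36.0 CPM. Cxcr2, the chemokine receptor of mature neutrophils, was at 0 to 0.240 CPM in all 4 libraries, and the groups overlapped.

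The summed levels of the remaining marker lists were closer to equal between the groups than those of the neutrophil markers. Of 12 T cell markers 0 passed and 11 had a fitted value above 0 (9695 of all 20631 genes), with a summed level of 121, 113, 167 and 152 CPM. At an unadjusted p under 0.05, 3 were higher (5.50% of all genes), and in 7 both mutant libraries lay above (19.2% of all genes). Of 13 B cell markers 0 passed, with a summed level of 475, 422, 421 and 462 CPM. At an unadjusted p under 0.05, 3 were lower (5.05% of all genes), and in 5 both mutant libraries lay below (19.8% of all genes). Of 10 NK cell markers 0 passed, with 151, 100.2, 87.2 and 84.0 CPM. Of 19 monocyte and macrophage markers 0 passed, and 6 were lower and 2 higher at an unadjusted p under 0.05 (5.05 and 5.50% of all genes). Their summed level was 5535, 4043, 3669 and 4123 CPM. Most of that sum was Nr4a1, also in the immediate-early list, at 3962, 3023, 2735 and 2848 CPM. Most of the B cell sum was Ighm, at 404, 366, 371 and 413 CPM. Of 13 plasmacytoid dendritic cell markers 0 passed, and of 11 erythroid and platelet markers 0 passed, with 11 fitted above 0 and a summed level of 16.4, 9.20, 20.9 and 24.6 CPM. The part of these cells in the genes that changed was not tested. Xist had 0 to 3 counts and Ddx3y 114 to 172 CPM in all 4 libraries, so the libraries did not differ in these sex-linked genes.

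Gene length ran through the comparison. Across the same 8404 genes, the log2 difference of the group means had a Spearman's rho of 0.48 with exon length, a description across genes that share the same libraries. It was 0.52 and 0.48 for mutant replicates 2 and 3 against wild-type replicate 2, but 0.29 and 0.13 against wild-type replicate 3, and -0.39 between the 2 wild-type libraries. Genes with under 1 kb of exons had a median difference of -0.20 and genes with over 6 kb one of 0.16. Short genes tended to be lower and long genes higher in the mutant, mainly against wild-type replicate 2.

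**Figure D5:**
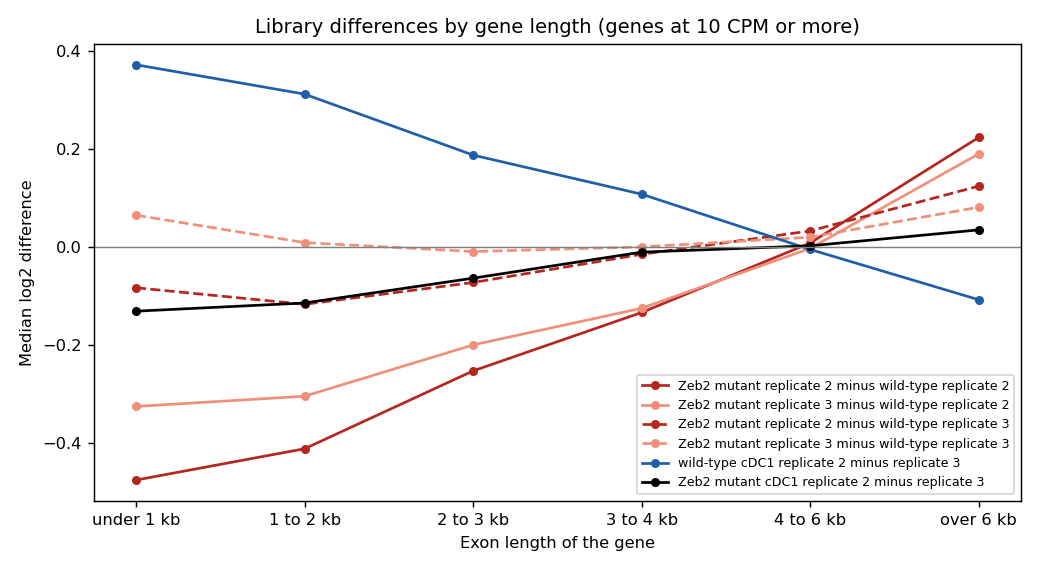
Median log2 difference between pairs of cDC1 libraries (y axis) by exon length of the gene (x axis), for the 8404 genes averaging 10 CPM or more. The lines for mutant minus wild-type replicate 2 (solid red and pink) slope upward from -0.48 and -0.33 under 1 kb to 0.22 and 0.19 over 6 kb, while mutant replicate 3 minus wild-type replicate 3 (dashed pink) runs from 0.07 to 0.08.

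GC content ran through it too. Over the same genes, of which 8399 had a GC content of the longest GENCODE transcript, the difference of the group means had a rho of -0.25 with GC content. Mutant replicates 2 and 3 had a rho of -0.48 and -0.33 against wild-type replicate 3, further from 0 there than the rho with length, and of -0.12 and -0.01 against wild-type replicate 2. It was -0.11 after the length trend had been removed. Genes rich in GC thus tended to be lower in the mutant, mainly against wild-type replicate 3. No GC trend was removed, and its part in the genes that changed was not tested.

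After removal of each library's length trend, 1 gene was higher and 9 were lower (0.00485 and 0.0436% of genes tested). Of the 14 genes, 9 stayed called, among them Cd209a, Hpgd, Tnf, Fkbp5, Abca9, Skint3, St14 and Nxpe5, whereas Tnfsf9, H2-M2, Apol7c, Pag1 and Lifr did not. With limma voom 8 of the 14 stayed called, and Abca9, Skint3, St14, Nxpe5, Lifr and Pag1 did not. Leaving out single libraries moved the count further: without wild-type replicate 3 edgeR called 755 genes higher and 323 lower, and without wild-type replicate 2 it called 11 and 22. Without mutant replicate 2 it called 4 and 2, and without replicate 3 it called 5 and 4. Among these 4 fits Hpgd alone of the genes described here kept its call in all, while Cd209a and Tnf lost theirs without either mutant library (adjusted p up to 0.0883 for both). With the genes of the full fit kept in place of a new filter, 0 of the 14 stayed called without either mutant library, 10 without wild-type replicate 2 and 14 without replicate 3. On the 4 cDC1 libraries alone 2 genes were called, both lower, and 1 of them was among the 14.

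The genes that changed were spread over 9 chromosomes, with 4 of 14 on chromosome 17 (Tnf, Fkbp5, H2-M2 and Tnfsf9; 28.6%, where 5.17% of tested genes lie). DESeq2, which called 158 genes higher and 147 lower, had 18 of its 305 on chromosome 17 (5.90%). With the length trend removed edgeR had 2 of 10 there (20%), and with at least 5 CPM in 2 libraries 4 of 34 (11.8%). None of the 14 was on chromosome 2, which carries Zeb2.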

How the data were processed

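RNA was isolated with a NucleoSpin RNA XS kit, and 10 ng with an integrity number above 8.0 went into SMARTer Ultra Low RNA libraries, which carry no strand mark, read as pairs of 150 bases, per the labels' protocols. The tools named in the submitters' processing notes are STAR, Salmon, featureCounts of Subread and bcl2fastq, with GRCm38 (mm10); versions, order and the handling of shared reads are not used here. The deposited counts per gene, whole numbers per the file headers, were the only values tested. The deposited CPM, FPKM and TPM columns served to check the counts, from which all 3 could be rebuilt. Of 55487 gene IDs, 55227 were in GENCODE M21, which gave symbols, and 260 had no match. The files' own coordinates are printed.

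The model was edgeR 4.0.16 in R 4.3.3: filterByExpr (20631 genes), TMM, and a robust quasi-likelihood model with 1 coefficient per group over all 8 libraries (4 residual degrees of freedom). A call is a Benjamini-Hochberg adjusted p under 0.05. A loess trend of log2 counts on exon length (span 0.5) was removed from each library as an alternative, and no GC trend was; others used DESeq2 1.42.0, limma 3.58.1 (voom), other scalings, filters and sample sets. On simulated counts the test recovered 81.8% of genes changed 2-fold and 100% of those changed 3-fold at 10 CPM or more, among 19667 genes, and called 11 unchanged genes. The simulated libraries carried no length trend, and each gene varied alike in all groups. The real libraries carry such a trend and their wild-type cDC1 pair is more spread, so these rates may not hold for them.

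The groups, gene lists and comparisons were chosen with earlier results of these data known. The rule for names took every gene past the test, up to 5 members per list (those past the test, then by p, then the most abundant) and Zeb2, Xcr1, Clec9a and Irf8; predicted genes and pseudogenes were counted only. The text prints 13 of the 14 genes past the test and a selection of the list members, and both that selection and the members outside the rule were picked after their values were seen. The promoter patterns were chosen after the calls were known, and the stricter NF-kappaB pattern after the looser one. A few genes are part of all counts and are not reported here by name.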

Additional observations from a re-analysis of the deposited data

How the results depend on the processing

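With 2 libraries in each group, the number of genes called depended on most choices. Against 3 higher and 11 lower, edgeR called 1 higher and 10 lower with RLE factors, and 258 and 219 with no filter on low counts. It called 11 and 23 with at least 5 CPM in 2 libraries, and 0 and 2 on the 4 cDC1 libraries alone. With the length trend removed it called 1 and 9, and 1 and 3 on the 4 cDC1 libraries with that trend removed. DESeq2 called 158 and 147, all 14 genes among them, and limma voom 10 and 18, with 8 of the 14; Abca9, Skint3, St14, Nxpe5, Lifr and Pag1 lost their call with voom (adjusted p = 0.388, 0.112, 0.0917, 0.205, 0.244 and 0.0861). The replicate block called 3 and 10. With the length trend removed it called 0 and 6, and on the cDC1 libraries alone 6 and 11. The replicate numbers gave no sign of pairing the libraries (the deviations of wild-type and mutant cDC1 had a Pearson r of -0.19 across genes). A crossed replicate block, added after seeing the data, called 1 and 5, and 16 and 28 on the cDC1 libraries alone. With 1 library left out the higher calls ran from 0 to 755 and the lower from 0 to 369, the lowest on the genes of the full fit without a mutant library, also added after seeing the data; the lone library is then assumed to vary like the other groups. The log2 fold change of Zeb2 ran from -0.22 to 0.76 and was never called. The length trend of the group means had a rho of 0.31 at 1 CPM or more in place of 0.48. Of 3220 values for 101 named genes, 2851 stayed on their side of the threshold, 195 crossed to a call, 174 lost it and 0 reversed as a called value. Why the count moved with the library left out was not tested.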
